A study of Brassica napus with 45 samples.

Results

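A group of 42 rapeseed (Brassica napus) genes was described here whose leaf RNA was higher after abscisic acid (ABA) and lower after polyethylene glycol (PEG) in the wild types of both experiments of the series. For every gene, a change was the mean log2(value + 1) of the 3 treated libraries minus that of the 3 untreated libraries. A member had a change of at least 0.5 with ABA and of at most -0.5 with PEG in each of the 2 wild types, and 42 of the 78057 genes listed in both experiments met this rule. The members were thus chosen by the wild type libraries' ABA and PEG changes, whose values are given as a description with no test. The knockout and the overexpression lines were not used by the rule, and their responses to the treatments were tested.

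ABA is the hormone that plants make when water is short. It closes stomata and induces genes of water-stress tolerance through a pathway of receptors, phosphatases and kinases. PEG is an osmotic agent that makes water harder for roots to take up, and osmotic stress of this kind raises ABA in many plants, so genes that respond to ABA often respond to PEG in the same direction. In the wild types here, 3398 genes were higher with ABA by the same limit in both experiments. Of these, 2378 were also higher with PEG in both wild types, 42 were lower with PEG in both, and 978 had any other PEG response. The mirror image, lower with ABA and higher with PEG in both wild types, held for 17 genes.

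The leaves came from seedlings of a BnNAC038 knockout line (BnNAC038-KO-1), of 2 lines that overexpress BnNAC038 (BnNAC038-OE-1 and BnNAC038-OE-2, called line 1 and line 2) and of wild type. BnNAC038 encodes a transcription factor of the plant NAC family, and the question of the series was how it weighs drought response against growth. Each genotype was taken after 50 µM ABA for 3 h, after 20% PEG for 6 h and untreated, with 3 libraries in each of the 15 groups and 45 in all. The knockout experiment held 18 libraries (knockout and its own wild type) and the overexpression experiment 27 (line 1, line 2 and their own wild type). The wild type is called K407 in the knockout experiment's columns and WT in those of the overexpression experiment, and whether they are the same line is not given in the sources used here. The knockout was 1 line, and the promoter that drives the overexpression is not given in the sources used here. The genotype labels of line 2 name differently numbered NAC genes, whereas the titles name BnNAC038, and the titles were followed. The ABA and PEG groups differed in agent and in duration, which cannot be told apart, and the labels give no harvest time for the untreated leaves. In whole leaves, fewer cells of a type and less RNA per cell cannot be told apart.

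The 2 experiments were normalized separately by the authors, so all tests were made within an experiment and no level is compared across them. A library listed 33267 to 39156 genes at 1 or more in the knockout experiment, and 38105 to 41754 in the overexpression experiment. Each library correlated on average with the others of its group at 0.974 or more in the first and 0.981 or more in the second. In the overexpression experiment, 7 genes that were otherwise found in the lines but not in wild type were present in wild type ABA replicates 2 and 3, at a median share of 0.520 and 0.360 of the lines' level, and at 0 in replicate 1. In the knockout experiment, wild type untreated replicate 3 had 76 genes at under 0.25 times both other replicates, against 7 and 12 genes for replicates 1 and 2. None of the members was among these genes. Without these 3 libraries the rule found 48 genes, of which 32 were among the 42. Knockout PEG replicate 3 was also set apart, for its values in the members themselves, but the rule does not use it.

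The deposited tables give no gene names, so the members are named by identifier, which holds the chromosome and a running number. The 42 genes were spread over all 19 chromosomes, with at most 5 on any of them, and the closest pair on a chromosome was 55 running numbers apart. The A subgenome held 21 of them (50.0%) and the C subgenome 21 (50.0%), against 46.1% and 50.5% of all genes listed in both experiments. Each member was listed with a single transcript. Most were well expressed: their median rank by mean level, taken as the lower of the 2 experiments, was at the 90.4th percentile, with a range of 52.1 to 99.6. This rank was taken among all genes listed in both experiments, which include genes too low to be tested. Over the 18 libraries of the knockout experiment the members' mean values ran from 1.04 to 829 with a median of 35.0, against a median of 3.52 over all tested genes. Over the 27 libraries of the overexpression experiment they ran from 1.56 to 440.4 TPM (a share of all transcripts, scaled alike in every library) with a median of 25.0, against 4.15 for all tested genes.

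The member just inside it was BnaA07G0320600ZS, with wild type changes of 0.74 and 0.50 with ABA and of -2.01 and -1.26 with PEG in the knockout and the overexpression experiment. The gene just outside was BnaC09G0106200ZS, with 0.499 and 1.101 with ABA and -1.14 and -0.71 with PEG, its first value lying just under the limit. In the knockout experiment's wild type, 475 genes met the rule, and in the overexpression experiment's wild type 251 did. The median wild type change of the 42 was 0.89 with ABA and -1.62 with PEG in the knockout experiment, and 1.08 and -0.85 in the overexpression experiment. The PEG change of the overexpression experiment's wild type thus lay nearer to the limit of the rule.

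**Figure D1:**
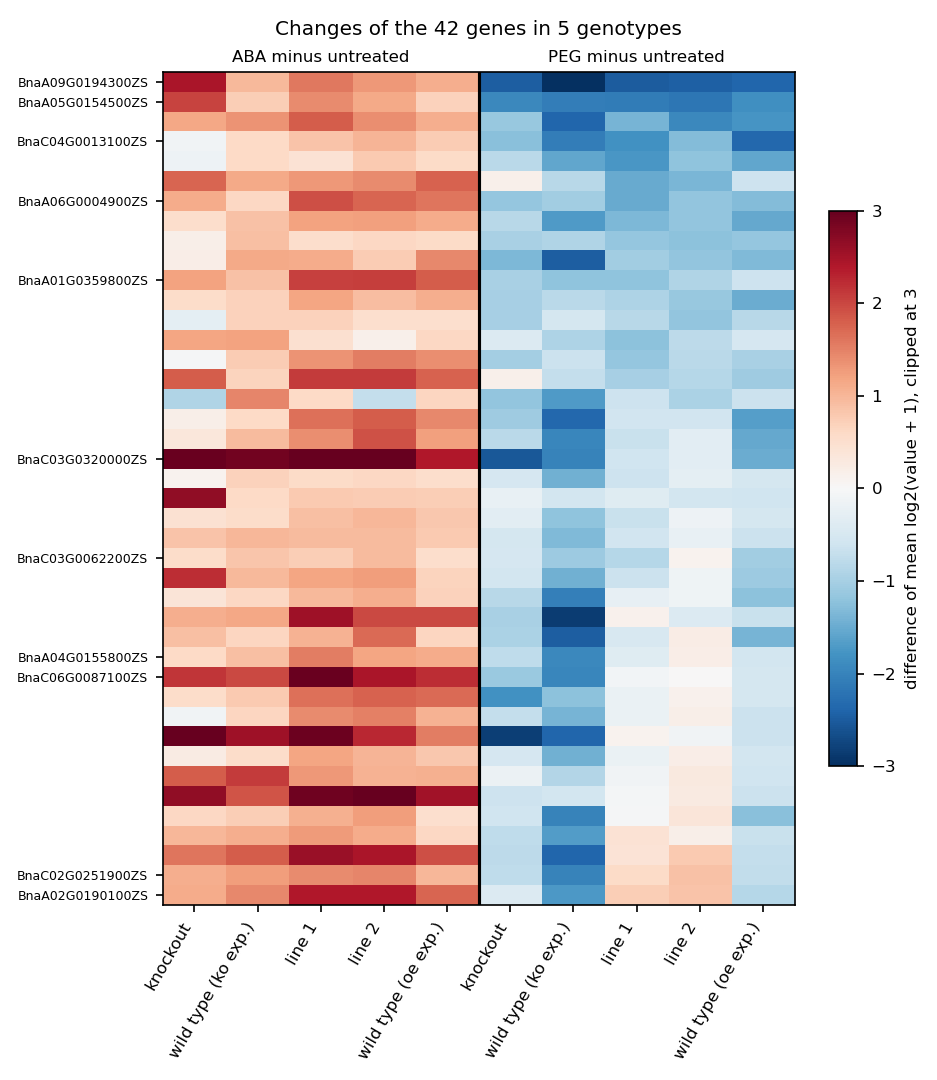
Change of each of the 42 genes (1 line of cells per gene) with ABA and with PEG, as the difference of mean log2(value + 1) between 3 treated and 3 untreated libraries, in the knockout, lines 1 and 2 and both wild types, with colours clipped at 3. Genes are ordered by their mean PEG change in the 2 lines, and the wild type columns chose the genes. In the lines, ABA changes are nearly all above 0 while PEG changes run from -2.50 to 0.88.

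Summed over the 42 genes, the RNA of the group followed the order ABA, untreated, PEG in the knockout and both lines. Both wild types had the same order, which the rule had set by choosing the members from them. In the knockout the sum was 7228 ± 1554 with ABA, 2152 ± 1145 with PEG and 3720 ± 1307 untreated (SD, n = 3 each, in the deposited normalized value). In its wild type the sum was 7839 ± 1013 with ABA, 1033 ± 150 with PEG and 3682 ± 401 untreated. In line 1 it was 5760 ± 417 TPM with ABA, 1222 ± 126 TPM with PEG and 1765 ± 34.5 TPM untreated. Line 2 gave 4828 ± 825 TPM with ABA, 1436 ± 131 TPM with PEG and 1666 ± 249 TPM untreated, and the wild type of these lines 6401 ± 65.8, 1384 ± 251 and 2474 ± 227 TPM in the same order. The libraries of line 1 did not overlap between treatments, with 5413 to 6223 TPM with ABA, 1118 to 1363 TPM with PEG and 1729 to 1798 TPM untreated. In line 2 the PEG libraries (1300 to 1561 TPM) overlapped with the untreated ones (1458 to 1942 TPM). The knockout's PEG libraries (1357 to 3465) overlapped with its untreated ones (2455 to 5065). These sums weight abundant genes most.

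The knockout libraries spread widely for these genes, and many but not all members moved together from library to library. Within a group, the members' median SD on the log2 scale was 0.47 in the knockout's ABA libraries, 0.63 in its PEG libraries and 0.54 in its untreated libraries, against 0.18, 0.19 and 0.14 for all tested genes. In its wild type the members' SD was 0.22 with ABA, 0.22 with PEG and 0.31 untreated, against 0.13, 0.16 and 0.16 for all tested genes. In line 2 with ABA it was 0.34, against 0.13. The members' median SD was above that of all tested genes in every group of both experiments. Knockout PEG replicate 3 held the highest value of its group for 36 of the 42 genes, with a median deviation of 0.70 from the group mean. Untreated knockout replicate 3 was the highest for 31 genes and replicate 2 the lowest for 29, with median deviations of 0.54 and -0.55. Knockout ABA replicate 2 was the highest for 29 genes, whereas ABA replicate 3 was the lowest for 24 and the highest for 8. Outside the knockout, PEG replicate 3 of the overexpression experiment's wild type was the lowest for 36 genes, and ABA replicate 2 of line 2 the highest for 34. What distinguished these libraries was not tested.

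**Figure D2:**
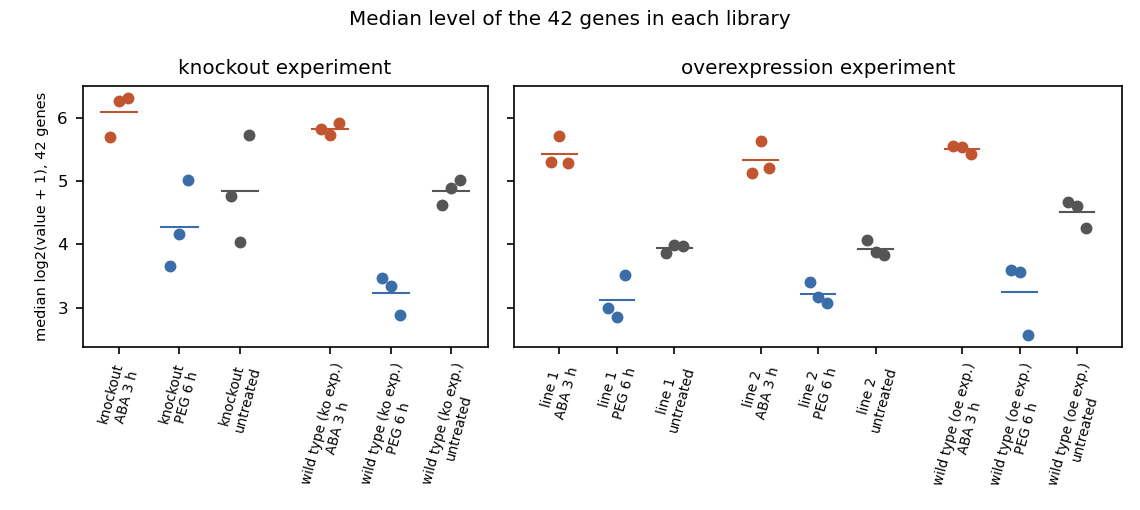
Median over the 42 genes of log2(value + 1) in each library (points) and its group mean (bars), for the knockout experiment (normalized value) and the overexpression experiment (TPM), whose levels are not comparable. Group means lie in the order ABA, untreated, PEG in all 5 genotypes, an order that the rule had set in the wild types. PEG replicate 3 of the knockout (5.02) lies above 2 of the 3 untreated knockout libraries.

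With ABA, most members were called higher in the overexpression lines, and 19 of the 42 in the knockout. In the knockout, 36 members had an ABA change above 0 and 28 one of at least 0.5, against 40.4% and 13.8% of the genes tested in both experiments. Calls were made by limma, fitted over all tested genes of the experiment, at a Benjamini-Hochberg adjusted p under 0.05. In line 1, 38 of the 42 genes were called higher with ABA than untreated, against 15.9% of the 47474 genes tested. In line 2 it was 39 of 42, against 14.1%. In the knockout it was 19, against 15% of 42926. With ABA 0 members were called lower in line 1, line 2 and the knockout (0 also at an unadjusted p under 0.05), where 17.9%, 16.2% and 27.8% of all tested genes were. The members' median ABA change was 1.30 in line 1, 1.25 in line 2 and 0.88 in the knockout, and that of all tested genes was -0.05, -0.07 and -0.12. Single members ranged from 0.43 to 3.84 in line 1, from -0.73 to 3.53 in line 2 and from -0.89 to 3.57 in the knockout. Their ABA and untreated libraries did not overlap for 18 members in the knockout (19.1% of all genes), 40 in line 1 (23.1%) and 37 in line 2 (18.5%). Of the 42 genes, 18 were called higher with ABA in all 3 mutants, 20 in 2 of them, 2 in 1 and 2 in none. Of the 39236 genes tested in both experiments, 8.8% were called higher with ABA in all 3 mutants, 7.1% in 2, 8.46% in 1 and 75.6% in none.

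With PEG, fewer members were called lower than were called higher with ABA in both lines, and about as many in the knockout (15 with PEG against 19 with ABA, an order that turned without PEG replicate 3 or without untreated replicate 2). In line 1, 24 of the 42 genes were called lower with PEG than untreated, against 26.2% of all tested genes, and 2 were called higher, against 41.9%. In line 2, 19 were called lower, against 26.3%, and 3 higher, against 38.7%. In the knockout 15 were called lower, against 21.8%, and 0 higher, against 35.3% (0 also at an unadjusted p under 0.05). The members' median PEG change was -0.63 in line 1, -0.32 in line 2 and -0.82 in the knockout, against 0.19, 0.14 and 0.13 over all tested genes. A value below 0 was seen for 36 members in line 1, 28 in line 2 and 40 in the knockout. Of the genes tested in both experiments it was seen for 40.5%, 41.8% and 39.9%. Single members ranged from -2.50 to 0.74, from -2.44 to 0.88 and from -2.82 to 0.15 in the same order. PEG and untreated libraries did not overlap, with PEG lower, for 12 members in the knockout (23.5% of all genes), 25 in line 1 (27.1%) and 19 in line 2 (27.6%), so that the knockout's share of 28.6% of members was near the background. Of the 42 genes, 9 were called lower with PEG in all 3 mutants, 11 in 2, 9 in 1 and 13 in none, against 13.9%, 11.5%, 10.4% and 64.2% of the genes tested in both experiments.

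The knockout's PEG count rested on single libraries. Without PEG replicate 3, 35 members were called lower with PEG, against 23.4% of the 42770 genes then tested, and the median change was -1.21. That library held the highest PEG value for 36 members, so leaving it out lowers their PEG mean by construction. Without untreated replicate 2, 28 were called, against 20.3% of 42717 genes. Without untreated replicate 3, 12 were called, against 19.6% of 42627 genes. The part of these libraries in the knockout's response was not tested further.

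Both responses together, which defined the group in the wild types, were called in 10 of 42 members in the knockout, against 0.466% of all tested genes, in 21 in line 1, against 0.784%, and in 16 in line 2, against 0.67%. The 2 comparisons share their untreated libraries. Without knockout PEG replicate 3 the knockout's number was 17, against 0.554%. Both calls were made in all 3 mutants for 4 genes, in 2 mutants for 14, in 1 for 7 and in none for 17, against 0.0561%, 0.431%, 1.11% and 98.4% of the genes tested in both experiments. PEG libraries were called lower than ABA libraries directly, a comparison that reuses the ABA libraries, for 32 members in the knockout (8.85% of all tested genes), 42 in line 1 (21.2%) and 41 in line 2 (21%). Over the 32 members that the rule also found without the libraries set apart, both calls were made for 16 in line 1, 12 in line 2 and 7 in the knockout.

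**Figure D3:**
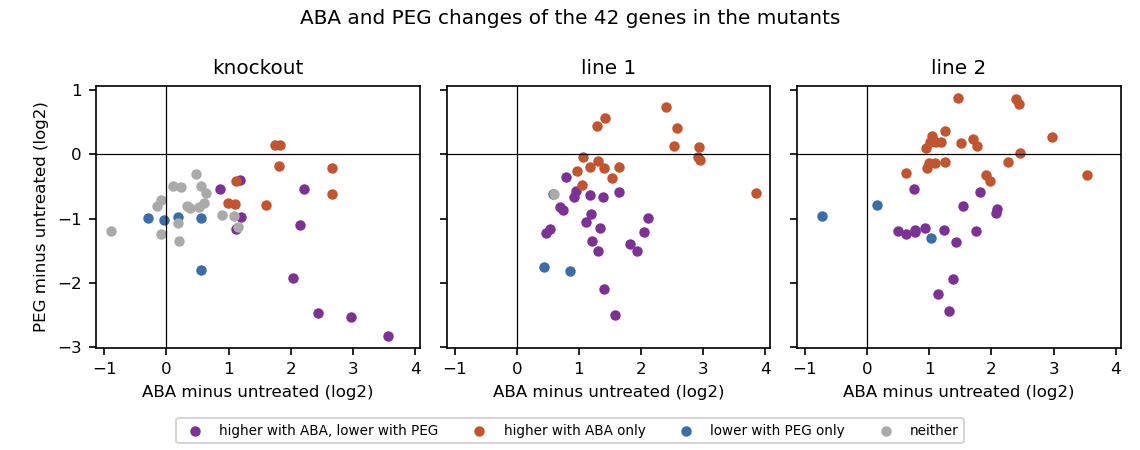
Change with ABA (x axis) against change with PEG (y axis), both on the log2(value + 1) scale, of the 42 genes in the knockout, line 1 and line 2, coloured by the limma calls (adjusted p under 0.05). The members called higher with ABA and lower with PEG number 10, 21 and 16 in the 3 panels, and in the lines most others lie at the right with PEG changes near 0 or above it.

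BnaA09G0194300ZS had the largest PEG decrease common to both wild types (-3.03 and -2.37) and was called in both directions in every mutant. Its values in the knockout were 106, 56.6 and 109 with ABA, 1.71, 1.20 and 3.17 with PEG and 17.2, 14.5 and 13.9 untreated, and in its wild type 47.9, 39.0 and 29.1 with ABA, 1.80, 1.08 and 1.49 with PEG and 24.1, 18.3 and 15.3 untreated. In line 1 they were 31.6, 42.3 and 36.8 TPM with ABA, 1.09, 1.41 and 1.19 TPM with PEG and 14.3, 10.6 and 10.1 TPM untreated. In line 2 they were 19.8, 44.3 and 30.4 TPM with ABA, 0.804, 2.23 and 1.09 TPM with PEG and 15.6, 7.67 and 12.5 TPM untreated. In all 3 mutants the ABA libraries lay above and the PEG libraries below every untreated library. With ABA it rose by 2.44 ± 0.27 (SE) on the log2 scale in the knockout (limma adjusted p = 4.9e-06), by 1.59 ± 0.26 in line 1 (adjusted p = 3.9e-05) and by 1.31 ± 0.26 in line 2 (adjusted p = 0.000405). With PEG it changed by -2.47 ± 0.27 in the knockout (adjusted p = 3.2e-06), by -2.50 ± 0.26 in line 1 (adjusted p = 1.8e-08) and by -2.44 ± 0.26 in line 2 (adjusted p = 3.1e-08).

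BnaA05G0154500ZS, one of the 2 members with the highest level rank, was also called in both directions in every mutant. The knockout had 378, 354 and 551 with ABA, 24.6, 25.4 and 28.2 with PEG and 102, 112 and 92.7 untreated, and its wild type 276, 266 and 201 with ABA, 40.7, 37.5 and 25.5 with PEG and 207, 162 and 91.5 untreated. Line 1 had 467, 769.5 and 591 TPM with ABA, 48.5, 51.4 and 55.9 TPM with PEG and 250.2, 211 and 213 TPM untreated. Line 2 had 336, 388 and 409 TPM with ABA, 29.4, 44.3 and 38.8 TPM with PEG and 114, 133 and 321 TPM untreated. The 3 treatments did not overlap in the knockout, line 1 or line 2, although the untreated libraries of line 2 ranged widely. The log2 change with ABA was 2.03 ± 0.26 in the knockout (limma adjusted p = 1.8e-05), 1.41 ± 0.29 in line 1 (adjusted p = 0.000559) and 1.14 ± 0.29 in line 2 (adjusted p = 0.0042). With only the groups of the contrast fitted, the last of these was not called (adjusted p = 0.0586). The change with PEG was -1.93 ± 0.26 in the knockout (adjusted p = 1.9e-05), -2.09 ± 0.29 in line 1 (adjusted p = 1.4e-06) and -2.17 ± 0.29 in line 2 (adjusted p = 1e-06).

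The other genes called in both directions in all 3 mutants, picked out after their values were seen, were BnaA01G0359800ZS and BnaA06G0004900ZS. With ABA, BnaA01G0359800ZS rose by 2.04 ± 0.27 in line 1, 2.07 ± 0.27 in line 2 and 1.20 ± 0.20 in the knockout, and with PEG it changed by -1.21 ± 0.27, -0.91 ± 0.27 and -0.97 ± 0.20 (limma, largest adjusted p = 0.00519). BnaA06G0004900ZS rose by 1.93 ± 0.32, 1.75 ± 0.32 and 1.12 ± 0.21 in the same order with ABA, and with PEG it changed by -1.51 ± 0.32, -1.19 ± 0.32 and -1.16 ± 0.21 (largest adjusted p = 0.0027). All 4 genes lie on the A subgenome.

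The largest ABA increase common to both wild types was that of BnaC03G0320000ZS (2.90 and 2.39). In the knockout its values were 52.3, 78.1 and 115 with ABA, 0.689, 0.534 and 1.02 with PEG and 8.62, 3.82 and 20.9 untreated, and in its wild type 49.2, 53.7 and 41.8 with ABA, 1.35, 0.225 and 0.508 with PEG and 7.89, 7.05 and 2.99 untreated. In line 1 they were 16.2, 57.8 and 27.2 TPM with ABA, 0.363, 0.364 and 0.478 TPM with PEG and 1.76, 0.986 and 0.758 TPM untreated. In line 2 they were 11.3, 38.3 and 16.3 TPM with ABA, 0.296, 0.318 and 0.615 TPM with PEG and 0.833, 0.371 and 1.14 TPM untreated, against 14.3, 14.3 and 24.8 TPM with ABA, 0.262, 0.200 and 0.252 TPM with PEG and 4.18, 1.62 and 2.08 TPM untreated in the wild type of the lines. The ABA libraries stood far above the rest in every genotype. In line 1 every PEG library lay below every untreated one, and in line 2 they overlapped. With ABA the gene rose by 2.97 ± 0.44 in the knockout (limma adjusted p = 7.5e-05), 3.84 ± 0.38 in line 1 (adjusted p = 3.3e-08) and 3.53 ± 0.38 in line 2 (adjusted p = 1.6e-07). With PEG it fell in the knockout (-2.53 ± 0.44, adjusted p = 0.000199), whereas the changes of -0.60 ± 0.38 in line 1 (adjusted p = 0.16) and -0.32 ± 0.38 in line 2 (adjusted p = 0.468) were not called. The PEG change of line 1 was called with a pseudocount of 0.1 (-1.27, adjusted p = 0.0217) and with only the groups of the contrast fitted (adjusted p = 0.0211).

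BnaC06G0087100ZS was second by ABA increase in the wild types (1.98 and 2.22). The knockout had 809, 1399 and 613 with ABA, 52.3, 92.9 and 161 with PEG and 186, 163 and 261 untreated. Line 1 had 301, 472 and 397 TPM with ABA, 47.8, 45.5 and 44.0 TPM with PEG and 57.2, 46.4 and 43.2 TPM untreated, line 2 had 167, 312 and 226 TPM with ABA, 44.8, 35.5 and 43.9 TPM with PEG and 40.9, 27.1 and 60.5 TPM untreated, and their wild type had 306, 401 and 418 TPM with ABA, 62.7, 55.5 and 45.5 TPM with PEG and 109, 62.3 and 71.9 TPM untreated. In both lines PEG and untreated libraries overlapped. It rose with ABA by 2.14 ± 0.34 in the knockout (limma adjusted p = 0.000132), 2.95 ± 0.25 in line 1 (adjusted p = 3.9e-09) and 2.46 ± 0.25 in line 2 (adjusted p = 9.4e-08). With PEG the change was -1.10 ± 0.34 in the knockout (adjusted p = 0.0117), -0.09 ± 0.25 in line 1 (adjusted p = 0.78) and 0.02 ± 0.25 in line 2 (adjusted p = 0.958). The knockout's PEG call was lost without untreated replicate 3 (-0.91, adjusted p = 0.0542) and without PEG replicate 1 (-0.70, adjusted p = 0.0775).

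BnaC04G0013100ZS was second by PEG decrease in the wild types (-2.07 and -2.36). In the mutants it was called lower with PEG in both lines and was not called with ABA. The knockout had 41.7, 146 and 84.2 with ABA, 14.1, 45.6 and 68.6 with PEG and 82.6, 40.5 and 187 untreated, so all 3 treatments overlapped there. Line 1 had 47.4, 52.8 and 40.6 TPM with ABA, 7.82, 6.20 and 5.56 TPM with PEG and 21.3, 28.3 and 27.04 TPM untreated. Line 2 had 40.3, 54.3 and 41.5 TPM with ABA, 9.17, 7.47 and 8.10 TPM with PEG and 20.6, 25.0 and 19.7 TPM untreated. With PEG it fell in line 1 (-1.82 ± 0.39, limma adjusted p = 0.000326) and in line 2 (-1.30 ± 0.39, adjusted p = 0.00653), and the knockout's change of -1.24 ± 0.59 was not called (adjusted p = 0.081), although it was without PEG replicate 3 (-1.71, adjusted p = 0.0277) and without untreated replicate 2 (-1.78, adjusted p = 0.023). With ABA none of the 3 changes was called (0.86 ± 0.39 in line 1, 1.02 ± 0.39 in line 2 and -0.10 ± 0.59 in the knockout, adjusted p = 0.102, 0.0543 and 0.911), though the ABA and untreated libraries of both lines did not overlap. With only the groups of the contrast fitted, both line changes were called (adjusted p = 0.00401 and 0.00321), and that of line 2 was also called with the stricter filter (adjusted p = 0.044).

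BnaA04G0155800ZS was the member with the highest level rank, with a mean of 829 over the knockout experiment's libraries. The knockout had 1029.9, 1689 and 1179 with ABA, 412, 355 and 835 with PEG and 872, 578 and 1177 untreated. Line 1 had 575, 685 and 608 TPM with ABA, 186, 114 and 213 TPM with PEG and 189, 221 and 237 TPM untreated. Line 2 had 649, 639 and 565 TPM with ABA, 379.8, 359 and 217 TPM with PEG and 259.7, 322 and 236 TPM untreated. PEG and untreated libraries overlapped in all 3 mutants. It rose with ABA by 1.53 ± 0.23 in line 1 (limma adjusted p = 1.7e-05) and 1.19 ± 0.23 in line 2 (adjusted p = 0.000394), and the knockout's change of 0.60 ± 0.35 was not called (adjusted p = 0.189). The PEG changes of -0.37 ± 0.23 in line 1, 0.19 ± 0.23 in line 2 and -0.76 ± 0.35 in the knockout were not called (adjusted p = 0.155, 0.474 and 0.0764). The knockout's PEG change was called without PEG replicate 3 (-1.13, adjusted p = 0.0103) and without untreated replicate 2 (-1.03, adjusted p = 0.0324).

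A few members rose with PEG in the overexpression lines, opposite to the wild types that chose them. BnaA02G0190100ZS had 27.9, 49.9 and 38.5 TPM with PEG and 18.7, 20.5 and 28.6 TPM untreated in line 1, and 36.1, 47.5 and 38.4 TPM with PEG and 22.2, 21.4 and 22.1 TPM untreated in line 2. Their wild type had 34.8, 26.0 and 28.9 TPM with PEG and 63.3, 75.5 and 34.0 TPM untreated. With PEG the values of line 1 overlapped those of wild type and the values of line 2 lay above them, while every untreated library of the lines lay below every untreated wild type library. With PEG the gene rose by 0.74 ± 0.25 in line 1 (limma adjusted p = 0.0141) and by 0.86 ± 0.25 in line 2 (adjusted p = 0.00553). In the knockout it had 78.8, 99.2 and 238 with PEG and 181, 90.6 and 274 untreated, a change of -0.42 ± 0.39 (adjusted p = 0.376) that became -0.89 without PEG replicate 3 (adjusted p = 0.0451).

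BnaC02G0251900ZS showed the same pattern. It had 45.8, 78.2 and 59.0 TPM with PEG and 36.5, 37.0 and 47.0 TPM untreated in line 1, and 73.3, 73.1 and 60.8 TPM with PEG and 36.8, 35.4 and 38.9 TPM untreated in line 2, against 49.8, 41.2 and 44.1 TPM with PEG and 76.9, 105 and 52.1 TPM untreated in their wild type. In line 1 the lowest PEG library lay just below the highest untreated one, and in line 2 the treatments did not overlap. With PEG it rose by 0.57 ± 0.22 in line 1 (limma adjusted p = 0.0291) and by 0.88 ± 0.22 in line 2 (adjusted p = 0.00159), and in the knockout the change was -0.77 ± 0.37 (adjusted p = 0.0888, and -1.25 with adjusted p = 0.00366 without PEG replicate 3). Values of this gene and BnaA02G0190100ZS ran closely together over libraries, which share their treatments (Pearson's r of log2(value + 1) = 0.991 over 18 and 0.976 over 27 libraries, as a description), and whether their reads can be told apart is not given in the sources used here.

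The line 1 calls of these genes depended on the settings. With quantile normalization, which moved the median PEG change of all genes in line 1 from 0.19 to 0.01 and in line 2 from 0.14 to 0.01, they became 0.57 (adjusted p = 0.0532) for BnaA02G0190100ZS and 0.45 (adjusted p = 0.0904) for BnaC02G0251900ZS. The call of BnaA02G0190100ZS was lost without line 1 untreated replicate 1 (adjusted p = 0.0639) or PEG replicate 2 (adjusted p = 0.0919). That of BnaC02G0251900ZS was lost without untreated replicate 1 (adjusted p = 0.088) or 2 (adjusted p = 0.0828) and without PEG replicate 2 (adjusted p = 0.175) or 3 (adjusted p = 0.0525). Both line 2 calls remained under every alternative run. The remaining member called higher with PEG, chosen after its values were seen, was BnaC02G0523300ZS in line 2. It had 16.3, 15.6 and 11.8 TPM with PEG and 8.67, 7.66 and 7.50 TPM untreated there, and rose by 0.79 ± 0.20 (limma adjusted p = 0.00153). In line 1 it had 11.5, 12.6 and 13.1 TPM with PEG and 8.92, 9.18 and 9.08 TPM untreated, with no overlap but no call (0.41 ± 0.20, adjusted p = 0.0737).

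These 3 genes were called higher with ABA in all 3 mutants. BnaA02G0190100ZS rose with ABA by 1.12 ± 0.39 in the knockout (limma adjusted p = 0.031), 2.40 ± 0.25 in line 1 (adjusted p = 1.2e-07) and 2.40 ± 0.25 in line 2 (adjusted p = 1.5e-07). BnaC02G0251900ZS rose by 1.096 ± 0.37 (adjusted p = 0.026), 1.42 ± 0.22 (adjusted p = 2.9e-05) and 1.46 ± 0.22 (adjusted p = 2.5e-05) in the same order, and BnaC02G0523300ZS by 1.61 ± 0.50 (adjusted p = 0.0165), 2.58 ± 0.20 (adjusted p = 7.6e-10) and 2.44 ± 0.20 (adjusted p = 2.6e-09). The knockout's ABA calls of BnaA02G0190100ZS and BnaC02G0251900ZS were lost without any of untreated replicates 1 and 2 and ABA replicates 1 and 2 (adjusted p = 0.0544 to 0.169). They were also lost with only the groups of the contrast fitted (adjusted p = 0.0781 and 0.0559), and that of BnaA02G0190100ZS with no filter on low values (adjusted p = 0.0583).

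**Figure D4:**
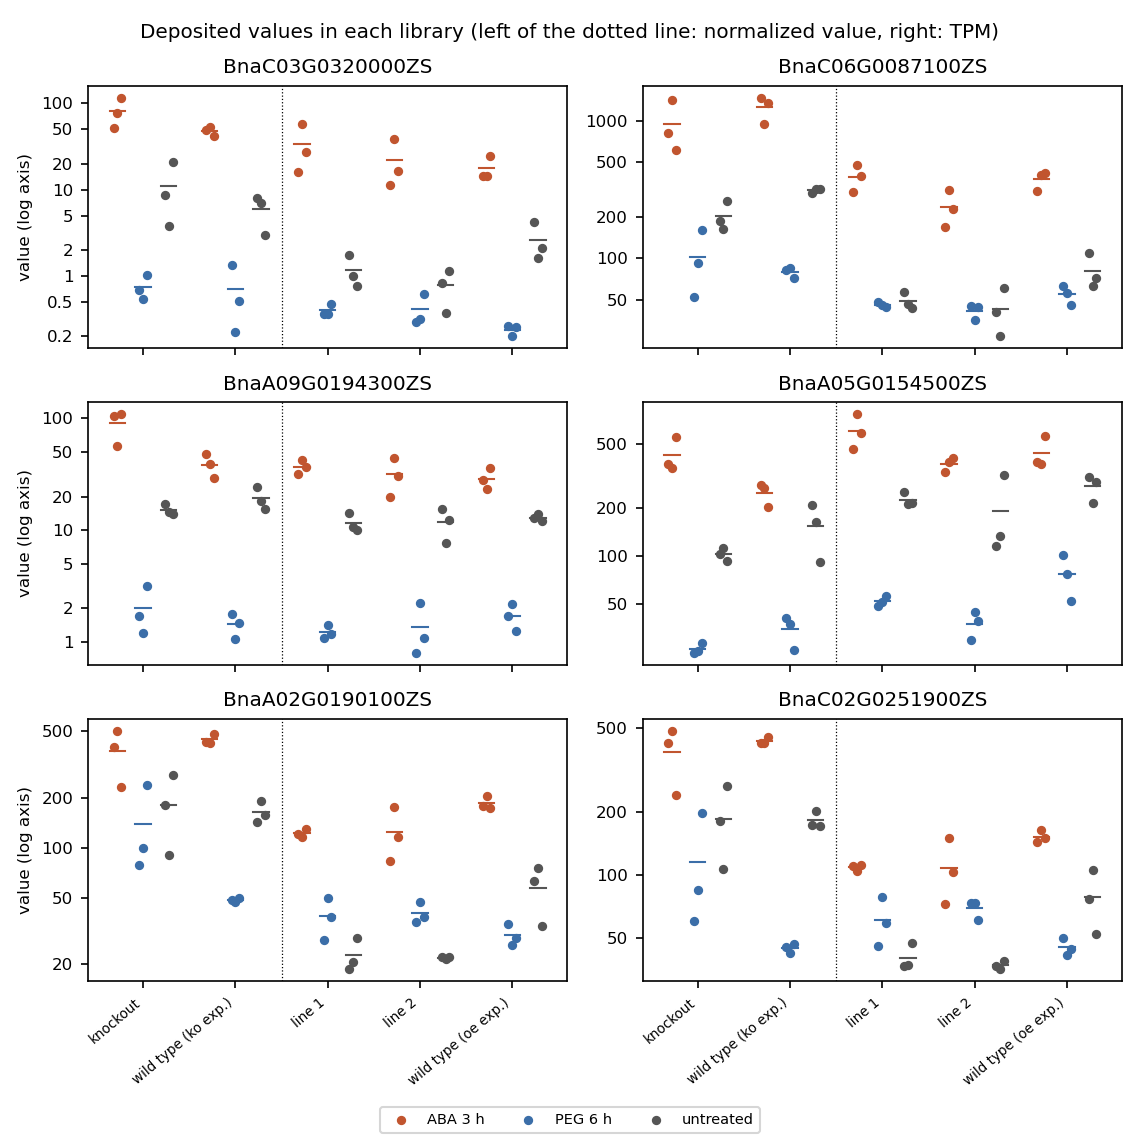
Deposited values of 6 members in each library on log axes (points) with group means (bars), for the knockout experiment left of the dotted line and the overexpression experiment right of it, whose levels are not comparable. PEG libraries of BnaA09G0194300ZS and BnaA05G0154500ZS lie below all untreated libraries of the same genotype in every genotype, whereas those of BnaA02G0190100ZS and BnaC02G0251900ZS lie mostly above the untreated ones in lines 1 and 2.

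Split by the PEG calls of the lines, 18 members were lower in both lines, 7 in 1 line and 17 in neither. In the 18, the median PEG change was -1.21 in line 1 and -1.19 in line 2, and in the 17 it was -0.09 and 0.19. In the knockout experiment's wild type the median PEG change was -1.96 for the 17 and -1.13 for the 18. In the overexpression experiment's wild type it was -0.67 for the 17 and -1.31 for the 18. In the knockout, 9 of the 18, 2 of the 7 and 4 of the 17 were called lower with PEG, with medians of -0.998, -0.53 and -0.77. These shares of 50%, 28.6% and 23.5% stand against 21.8% of all tested genes. The share of the 17 was near it, and so was that of the 7, which rests on 2 genes. With ABA the 17 had medians of 1.53 in line 1 and 1.70 in line 2, against 1.26 and 1.19 for the 18. These classes were made from the lines' own values, so their line medians are a description with no test.

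Between lines 1 and 2, 0 members were called different in level in untreated leaves by limma, against 0.0484% of all tested genes. With ABA it was 0, against 0.126%, and with PEG 1, against 0.173%. At an unadjusted p under 0.05 the members numbered 1, 3 and 7 in the same order. The ABA response was called different between the lines for 0 members, against 0.00211% of all tested genes, with differences from -0.66 to 1.32. The PEG response was called different for 0, against 0.0126%, with differences from -0.96 to 0.55. At an unadjusted p under 0.05 the members numbered 1 for ABA and 3 for PEG. The shares of all genes at the unadjusted limit are not given, so the unadjusted numbers cannot be weighed against them. Across the 42 genes, the changes of line 1 and line 2 had a Pearson's r of 0.905 with ABA and 0.907 with PEG. Those of the knockout and line 1 had 0.649 and 0.214, and those of the knockout and line 2 had 0.584 and 0.310. Lines 1 and 2 share an experiment, whereas the knockout is from the other, normalized separately, and its libraries spread more widely for these genes. The r values are thus not like for like, and what sets them apart was not tested. These values describe genes of shared libraries, and each line's changes rest on its own 3 untreated libraries.

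The member called between the lines was BnaC03G0062200ZS under PEG. Line 1 had 2.45, 2.78 and 2.44 TPM and line 2 had 6.54, 8.52 and 3.83 TPM with PEG, against 3.74, 3.42 and 2.81 TPM in their wild type. The lines did not overlap, and they differed by -0.98 ± 0.20 (line 1 minus line 2, limma adjusted p = 0.0474). The call was lost with quantile normalization (adjusted p = 0.0506), with only the groups of the contrast fitted (adjusted p = 0.56), without the libraries set apart (adjusted p = 0.0655) and without any 1 of 5 of the 6 PEG libraries of the lines (adjusted p = 0.058 to 0.289), line 2 replicate 3 being the exception.

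Levels of the members in the mutants and in wild type are set side by side as a description with no test, because the wild type libraries chose the members. In untreated leaves, 40 of the 42 genes were lower in line 1 and 39 in line 2 than in wild type, with median differences of -0.51 and -0.49, where the median of all tested genes was -0.02 and 0.05. With ABA the median difference was -0.23 in line 1 and -0.32 in line 2, and with PEG it was -0.19 and -0.02. In the knockout, 23 members were higher and 19 lower than in wild type when untreated, with a median of 0.03 (all tested genes -0.05), which ran from -0.28 (12 higher) without untreated knockout replicate 3 to 0.31 (28 higher) without replicate 2. With ABA the median was -0.22, and it ran from -0.41 to -0.0025 with 1 knockout ABA library left out. With PEG, 36 were higher in the knockout, with a median difference of 0.79, where that of all tested genes was -0.0038. Without PEG replicate 3 of the knockout, 31 were higher, with a median of 0.43.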

How the data were processed

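Leaf RNA of 45 libraries was measured by sequencing. The authors deposited the knockout experiment as a normalized signal for 78057 genes, whose kind (TPM, FPKM or other) is not stated, and the overexpression experiment as TPM per transcript (107233 transcripts), as read from the equal library sums. The transcripts were summed here to 100919 genes. The authors' tools, per the submitters' processing notes and without their roles, were kallisto 0.51.1, sleuth 0.30.1, HISAT2 and DESeq2 1.38.3. For build and annotation, the version is not given in the sources used here. Neither of them holds read numbers, so the depth is unknown and counting intervals cannot be given. Reads of near-identical A and C subgenome copies may have been divided between them. None of the identifiers (0) was found among 123214 reference genes (Da-Ae assembly), so gene names, gene lists, cell type markers, the BnNAC038 gene and sequences were not analysed here.

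Values were tested as log2(value + 1) with limma 3.58.1 in R 4.3.3, with data.table (version 1.17.8) for reading and Python 3.11.15 for tables and figures. This scale understates changes of low genes. The tested genes (42926 and 47474, and 39236 in both) reached 1 in 3 or more libraries of an experiment, with 1 coefficient per group over all groups of the experiment, empirical Bayes moderation with a mean trend, and no replicate block, and calls were made at an adjusted p under 0.05 (Benjamini-Hochberg, over all tested genes). All 42 members passed this filter in both experiments. Each of them had to reach a change of 0.5 in 2 wild types, so passing says nothing about them. The titles say biological replicate but not whether plants were separate, so p-values measure the spread between these libraries only.

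Identifiers were named by rule. Named were the 2 members with the largest ABA increase and the 2 with the largest PEG decrease. Each was taken as the smaller of the 2 wild types, with a mean of at least 5 in the highest group of each experiment. The 2 with the highest level rank, taken as the lower of the 2 experiments, were also named. So were at most 2 called against the wild type direction per mutant and treatment, and at most 2 called per contrast between the lines. The genes just inside and outside the rule were named too. Genes picked after their values were seen are marked. The members, the rule and the tests were chosen with earlier results of these data known. Alternatives were another pseudocount (0.1), no and a stricter filter on low values (at least 5), quantile normalization, equal library sums, the highest transcript, a replicate block, only the groups of the contrast, each replicate left out, and 4 libraries left out (wild type untreated replicate 3 and knockout PEG replicate 3 of the knockout experiment, wild type ABA replicates 2 and 3 of the overexpression experiment), called the libraries set apart. Leaving out a mutant library in the level differences, and counting only the 32 members found without the libraries set apart, were chosen after seeing the data. Knockout PEG replicate 3 was set apart for its values in the members, so larger PEG counts without it are no independent support.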

Additional observations from a re-analysis of the deposited data

Results flagged for a closer look

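For 6 members a mutant moved one way in every library and wild type the other way in every library under the same treatment, in the direction against the rule. This is 14.3% of the 42, against 0.974% of the 39236 genes tested in both experiments, and the wild types of the 42 had been chosen to move in the needed direction. These differences were not tested, because the wild type libraries chose the members. With PEG, BnaC02G0251900ZS changed by 0.88 on the log2 scale in line 2, against -0.73 in wild type, and was called higher in line 2 by limma. With PEG, BnaC02G0523300ZS changed by 0.41 in line 1 (not called) and 0.79 in line 2 (called higher), against -0.72 in wild type. With PEG in line 2, BnaA01G0068200ZS changed by 0.19, against -0.55 in wild type, and BnaA10G0050300ZS by 0.28, against -0.59, neither called in line 2. In the knockout, BnaC01G0017900ZS changed by 0.15 with PEG, against -0.83 in wild type, and BnaC03G0341000ZS by -0.30 with ABA, against 0.69, neither called in the knockout.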

How the results depend on the processing

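Over 76 results, 1059 alternative values were computed that could move. Of these, 992 were labelled the same, 30 lost a call, 22 gained one, 15 counts moved by over 1.5 times and 0 were labelled reversed. A count was the same within 1.5 times of its main value, and a gene's change if it stayed on its side of the threshold. These labels do not show whether a change that was not called kept its sign. A further 105 could not move, as every member has 1 transcript and TPM libraries have equal sums. The rule found 82 genes with a pseudocount of 0.1 (including all 42) and 3 at a limit of 1 on the log2 scale. Leaving out 1 library gave 29 (without wild type PEG replicate 3 of the overexpression experiment) to 51 members (without wild type untreated replicate 3 of the knockout experiment). The same counts with each replicate left out in turn were, in the knockout, 15 to 23 members higher with ABA, 12 to 35 lower with PEG and 7 to 17 both. They were 35 to 37, 20 to 25 and 17 to 23 in line 1, and 34 to 39, 17 to 18 and 12 to 16 in line 2. Between the lines they were 0 to 0 untreated, 0 to 0 with ABA, 0 to 2 with PEG, and 0 to 0 for both responses. Without the libraries set apart, 34 members were lower with PEG and 17 both in the knockout. The share of all genes called is not given for this fit, the replicate block or most fits with a replicate left out. The member called between the lines under PEG was lost (0 called) with quantile normalization, with only the groups of the contrast fitted and without the libraries set apart, and the cause was not tested. With a replicate block the knockout had 18 members higher with ABA, 13 lower with PEG and 8 both, line 1 had 37, 24 and 20, and line 2 had 40, 19 and 17, and of the named genes only BnaC04G0013100ZS changed its call (higher with ABA in line 2, adjusted p = 0.0422). Same-numbered libraries of all 51 pairs of groups, wild types included, had deviations that correlated at -0.42 to 0.25. All 3 correlations were over 0.1 for 1 pair only (knockout with PEG and wild type untreated), which was not compared. All 3 were under -0.1 for 2 pairs, among them lines 1 and 2 with PEG (-0.27 to -0.14), which were compared. The numbers were not taken to pair the libraries. Depth is unknown, and 3 libraries a group limit every estimate.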
